A study of Rattus norvegicus with 6 samples.

Results

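The glial cell line-derived neurotrophic factor (GDNF) family comprises 4 ligands, the genes Gdnf, Nrtn (neurturin), Artn (artemin) and Pspn (persephin), 4 co-receptors, Gfra1, Gfra2, Gfra3 and Gfra4, and Ret, the receptor tyrosine kinase that all of them share. These 9 genes were chosen by name, and a row was taken for each whose symbol stood in the gene name field of the deposited table. A row was found for 8 of the 9 genes, and Gfra1 was not analysed here. Of these 8 rows, 4 passed the filter on low rows (mean FPKM, the fragments scaled to transcript length and library depth, of at least 0.5 over the 6 libraries): Ret, Gfra2, Gfra3 and a joined row, Gtf2f1;Pspn. The table held 43350 rows in all, of which 26663 passed that filter.

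The libraries came from ipsilateral lumbar (L4-6) dorsal root ganglia (DRG), the ganglia that hold the cell bodies of sensory neurons. The animals were male Sprague-Dawley rats whose age the labels do not state. The study's methods give their age when acquired, followed by some weeks of habituation, and no age at surgery. In the CCI group (chronic constriction injury) the left sciatic nerve had been loosely ligated, and in the sham group it had been exposed but not tied, so that both groups had undergone surgery. Tissue was taken on day 11, and each group held 3 libraries. The methods describe each library as coming from a single rat, although the labels' protocol speaks of pooled samples. RNA was rRNA-depleted and sequenced as whole-ganglion RNA, so fewer cells of a type and less RNA per cell cannot be told apart.

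A GDNF family ligand binds a co-receptor that is tethered to the cell surface by a lipid anchor, and the pair then activates Ret, whose phosphorylated tyrosines recruit adaptors such as Shc1, Frs2 and Dok proteins. The preferred pairs are Gdnf with Gfra1, Nrtn with Gfra2, Artn with Gfra3 and Pspn with Gfra4. In the DRG, Ret and Gfra2 are known for nonpeptidergic nociceptors that bind the lectin IB4 and for some large myelinated neurons, and Gfra3 for peptidergic nociceptors.

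Total counts were between 75423546 and 87615743 per library. All 8 general neuron markers passed the filter and none was called, with summed FPKM of 3178 to 3353 in the CCI group and 2599 to 3074 in the sham group. At an unadjusted p under 0.05 alone 2 were higher (log2 fold change of Tubb3 0.31, of Prph 0.25) and 1 was lower (Snap25, -0.39). That is 37.5% of the list against 10.7% of all rows. The injury genes separated the groups: Atf3, a transcription factor induced in axotomised neurons, rose by a log2 fold change of 3.47 (adjusted p = 0.0296), with FPKM of 34.9, 20.3 and 16.2 in CCI 1, 2 and 3 and of 1.89, 2.36 and 2.11 in sham 1, 2 and 3. Gal (galanin), a neuropeptide that is induced by nerve injury, had a log2 fold change of 4.49. In both genes CCI 1 was the highest library. With p-values from edgeR's quasi-likelihood test, 1022 of the 26663 rows (3.83%) were called, which needed a log2 fold change at or beyond 0.58 in either direction with an unadjusted p under 0.05, and 25 (0.0938%) had an adjusted p under 0.05. Those called comprised 686 higher rows (2.57%) and 336 lower rows (1.26%). Of 6 skeletal muscle markers, 5 were called lower in the CCI group, with summed FPKM of 124, 4.53 and 17.7 in sham 1, 2 and 3 and at most 7.68 in the CCI group. Sham 1, and to a smaller extent sham 3, thus stood above the CCI libraries in these markers, and sham 2 did not. Some of these rows passed the filter mainly through sham 1, which favours a lower CCI value. Among them were Tnni2, with 0 counts in each CCI library, and Actn3. The FPKM of Actn3 was 0.550, 0.349 and 0.134 in CCI 1, 2 and 3 and 6.18 in sham 1.

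The measured members were expressed at very unequal levels, with Ret above Gfra2, Gfra3 and Gfra4, and with Gdnf, Nrtn and Artn at few counts. Ranked by mean FPKM, Ret stood at position 405 of 21677 protein-coding rows with a symbol, so that only 1.86% of them were higher. Gfra3 stood at position 2532 (11.7% higher) and Gfra2 at 3062 (14.1% higher), while Nrtn, Artn, Gfra4 and Gdnf stood between 15083 and 15764. On the FPKM scale, the level of Ret was 5.49 to 6.69 times that of Gfra2 in CCI libraries and 4.68 to 6.21 times in sham libraries. It was 3.76 to 5.17 times that of Gfra3 in CCI libraries and 4.57 to 6.18 times in sham libraries. In the order of mean FPKM, Gfra3 (16.6) and Gfra2 (13.8) were neighbours whose sham libraries overlapped.

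**Figure D1:**
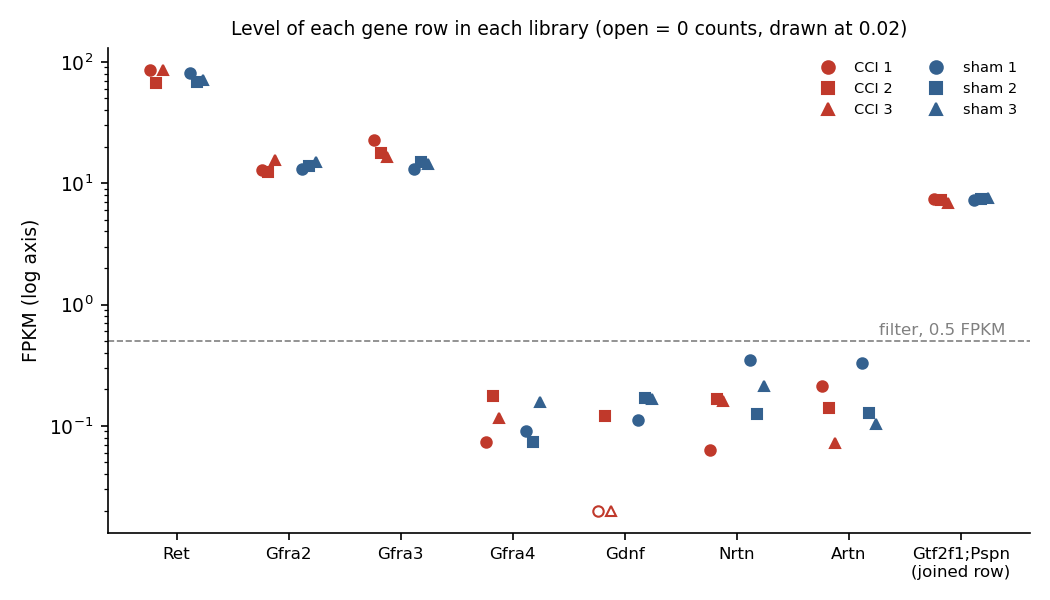
FPKM (log axis) of the 8 gene rows in the 3 CCI libraries (red) and 3 sham libraries (blue), with the filter at 0.5 FPKM as a dashed line; open symbols had 0 counts. Ret lay between 67.5 and 86.0 FPKM, and Gfra4, Gdnf, Nrtn and Artn lay at or under 0.350 FPKM.

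The start regions of Gfra3 and Ret are shown because Gfra3 was the member with the smallest p-value and Ret the member with the highest level. RefSeq start regions (GRCr8, 250 bases before to 50 bases after the start) matched 7 of the 8 members with a row. The Gfra3 region is chr18:26600176-26600475 on the minus strand, and the Ret region is chr4:153040507-153040806 on the minus strand. Capitals mark GC boxes (GGGCGG or its complement CCGCCC), the letters bound by Sp1 family factors.
Gfra3: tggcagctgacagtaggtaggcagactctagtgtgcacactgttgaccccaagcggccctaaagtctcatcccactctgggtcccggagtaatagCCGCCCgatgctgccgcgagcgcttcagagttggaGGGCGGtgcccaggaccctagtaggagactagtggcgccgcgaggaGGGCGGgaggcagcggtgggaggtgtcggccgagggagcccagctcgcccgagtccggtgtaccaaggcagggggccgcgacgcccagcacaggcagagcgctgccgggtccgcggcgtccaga
Ret: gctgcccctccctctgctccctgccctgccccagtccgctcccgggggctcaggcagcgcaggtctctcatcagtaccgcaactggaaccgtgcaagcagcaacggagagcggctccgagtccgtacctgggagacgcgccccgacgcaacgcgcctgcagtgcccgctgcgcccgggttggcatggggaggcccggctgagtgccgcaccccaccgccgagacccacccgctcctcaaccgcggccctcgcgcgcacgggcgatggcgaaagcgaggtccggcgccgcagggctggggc
The Gfra3 region held 3 GC boxes, 155, 120 and 74 bases before the start, with 68.0% G and C and 26 CpG. The Ret region held no GC box at 74.0% G and C and 35 CpG. Over all 33469 start regions the median was 51.7% G and C and 7 CpG, and 33.1% held a GC box. Fewer CpG than in Gfra3 were found in 84.8% of the regions, and fewer than in Ret in 93.9%. An AP-1 motif (TGACTCA, on either strand), the letters bound by Jun and Fos, was in none of the 7 matched members and in 4.63% of all regions, and a CRE motif (TGACGTCA) was in none of the 7 and in 1.83% of all regions. These motifs were chosen after the expression values were seen.

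Ret (chromosome 4, 150202058 to 150249650, minus strand, 8 transcripts in the row, coordinates of the authors' genome) carries the kinase activity of the complex. Its FPKM was 86.0, 67.5 and 85.4 in CCI 1, 2 and 3 and 81.3, 67.8 and 70.5 in sham 1, 2 and 3, from 47570 to 62537 counts per library. The groups overlapped, with CCI 2 and sham 2 lowest and close together. The means were 79.6 ± 10.5 (SD, n = 3) in the CCI group and 73.2 ± 7.12 (SD, n = 3) in the sham group. The fitted log2 fold change was 0.11 (SE 0.11, 95% interval -0.17 to 0.38, adjusted p = 0.823), which is a ratio of 1.08 with an interval of 0.890 to 1.301. A change of Ret by 0.58 in either direction lay outside this interval.

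Gfra2 (chromosome 15, 52556264 to 52648972, plus strand, 4 transcripts), the co-receptor preferred by neurturin, had FPKM of 12.8, 12.3 and 15.5 in CCI 1, 2 and 3 and of 13.1, 13.8 and 15.1 in sham 1, 2 and 3. The groups overlapped, and the highest and the lowest library were both CCI libraries. The means were 13.5 ± 1.71 (SD, n = 3) in the CCI group and 14.0 ± 0.997 (SD, n = 3) in the sham group. The log2 fold change was -0.06 (SE 0.10, 95% interval -0.31 to 0.19, adjusted p = 0.890), a ratio of 0.957 with an interval of 0.804 to 1.14.

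Gfra3 (chromosome 18, 27491845 to 27520295, minus strand), the co-receptor preferred by artemin, was the member that differed most relative to its error. Its FPKM was 22.9, 17.7 and 16.5 in CCI 1, 2 and 3 and 13.1, 14.8 and 14.5 in sham 1, 2 and 3. All CCI libraries lay above all sham libraries, a separation that 8.63% of all rows tested showed in this direction, and CCI 1 lay farthest from the rest. The means were 19.0 ± 3.39 (SD, n = 3) and 14.2 ± 0.895 (SD, n = 3) FPKM, from 2809 to 4526 counts per library. The log2 fold change was 0.41 (SE 0.14, 95% interval 0.08 to 0.73), a ratio of 1.33 with an interval of 1.06 to 1.66. Its unadjusted p by edgeR was 0.0215, a level under 0.05 that 10.7% of all rows tested also reached, and its adjusted p was 0.360. Gfra3 was not called, since its fold was under the limit of 0.58.

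The Gfra3 difference varied with the libraries used. Without CCI 1 the log2 fold change was 0.25, and without sham 1 the unadjusted p was 0.0697, above 0.05. CCI 1, the highest library for Gfra3, was also the highest for Atf3 and Gal, and sham 1, the lowest, was the highest for the muscle markers; their part in the result was not tested. The 5 peptidergic markers were not called, and their summed FPKM was 434 to 448 in the CCI group and 445 to 496 in the sham group. At an unadjusted p under 0.05 alone 2 of them were lower, or 40% against 10.7% of all rows. A positive log2 fold change was found in 2 of the 5. The 6 nonpeptidergic markers were not called either, at 158 to 168 and 153 to 158. P2rx3, with a mean of 84.9 FPKM, weighed most in these sums. At an unadjusted p under 0.05 alone, P2rx3 was higher (log2 fold change 0.16). Mrgprd (-0.20) and Scn11a (-0.15) were lower at that level. That is 50% of this list against 10.7% of all rows, and 2 of the 6 had a positive log2 fold change. Of the 6 large myelinated neuron markers, 1 was called lower (Pvalb), against 1.26% of all rows, 4 were lower at an unadjusted p under 0.05 alone, and 5 had each CCI library below each sham library, which 8.70% of all rows tested had. The sixth, Spp1, had a log2 fold change of 0.25. The list had summed FPKM of 1062 to 1180 in the CCI group and 1358 to 1434 in the sham group. Macrophage markers, of which 4 of 7 were called higher against 2.57% of all rows, had summed FPKM of 29.2 to 42.2 in the CCI group and 17.99 to 22.9 in the sham group, and their part in the Gfra3 difference was not tested.

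**Figure D2:**
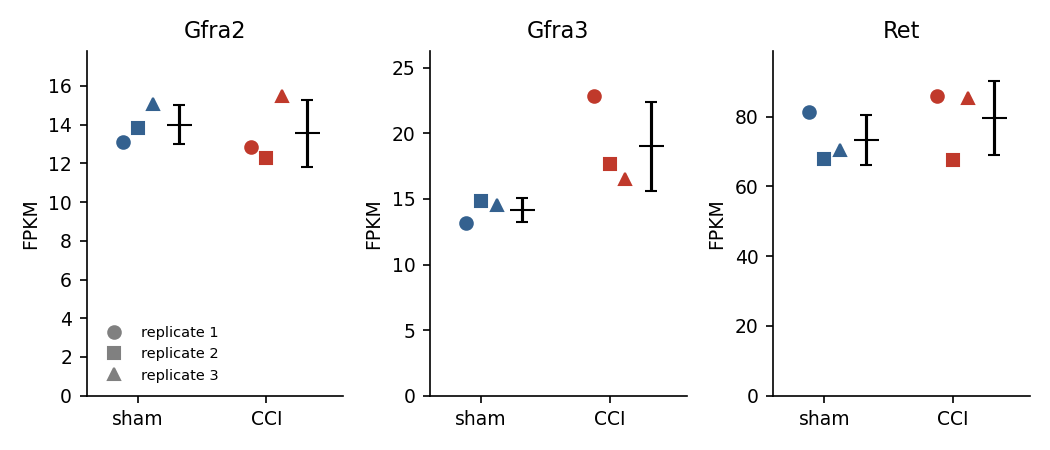
FPKM of Gfra2, Gfra3 and Ret in each sham library (blue) and CCI library (red), with symbols for replicates 1 to 3 and black bars for mean ± SD (n = 3); each axis starts at 0. Gfra3 lay between 16.5 and 22.9 in the CCI group and between 13.1 and 14.8 in the sham group, while the groups overlapped for Gfra2 and Ret.

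The genes whose log2 CPM (counts scaled to library depth only) followed Gfra3 most closely over the 6 libraries were Peli3 (Pearson r = 0.996), an E3 ubiquitin ligase of innate immune signalling, Rnf145 (r = 0.995), a RING-type E3 ligase of the endoplasmic reticulum, and the joined row of Adcy2 (r = 0.994), an adenylyl cyclase. These were the highest values among 13712 protein-coding genes, of which 401 had r above 0.9, and all points share the same 6 libraries and their 2 groups. Peli3 had 29.9, 21.7 and 19.5 CPM in CCI 1, 2 and 3 and 15.4, 18.2 and 16.8 CPM in sham 1, 2 and 3, with a log2 fold change of 0.50 (adjusted p = 0.369). None of these 3 genes was called.

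Gfra4 (chromosome 3, 123578997 to 123581518, minus strand), the co-receptor preferred by persephin, was near the floor of the data. Its counts were 7, 16 and 10 for CCI 1, 2 and 3 against 9, 7 and 15 for sham 1, 2 and 3, or 0.0740 to 0.178 FPKM. The groups overlapped, and the fit without a filter gave a log2 fold change of 0.16 (SE 0.72, 95% interval -1.54 to 1.86). At this depth a change of Gfra4 of 2-fold in either direction was within that interval.

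The make-up of the measured co-receptors was then compared within libraries, where library scaling cancels. Gfra3 made up 63.9%, 58.6% and 51.4% of the summed FPKM of Gfra2, Gfra3 and Gfra4 in CCI 1, 2 and 3. It made up 50.0%, 51.6% and 48.8% in sham 1, 2 and 3. CCI 3 lay within the sham range, so the groups overlapped. The means were 57.97% ± 6.28 (SD, n = 3) and 50.1% ± 1.39 (SD, n = 3), a difference of 7.84 percentage points with a two-sided exact permutation p of 0.2 (adjusted 0.467 over 7 measures, of which the smallest p possible is 0.1). Without CCI 1 the difference was 4.87 points. Gfra2 made up 35.9%, 40.8% and 48.3% in CCI 1, 2 and 3 and 49.7%, 48.2% and 50.6% in sham 1, 2 and 3, a difference of -7.85 points (exact permutation p = 0.2).

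The ratio of Gfra3 to Gfra2 in FPKM was 1.78, 1.44 and 1.06 in CCI 1, 2 and 3 and 1.01, 1.07 and 0.964 in sham 1, 2 and 3. The group difference was 0.46 on the log2 scale (exact permutation p = 0.2), and without CCI 1 it was 0.29. The smallest p that this test can give with all libraries is 0.1, which is above the limit for a call. The permutation p-values of these ratios therefore cannot decide whether the groups differ. The ratio of Gfra3 to Ret was 0.266, 0.262 and 0.193 in CCI 1, 2 and 3 and 0.162, 0.219 and 0.206 in sham 1, 2 and 3 (exact permutation p = 0.3). CCI 3 again lay within the sham range, and the log2 difference of 0.30 was 0.16 without sham 1 and 0.44 without CCI 3. The log2 ratio of Gfra2 to Ret differed by -0.17 (exact permutation p = 0.4), and by between -0.29 (without sham 1) and -0.07 (without CCI 1) when a library was left out.

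**Figure D3:**
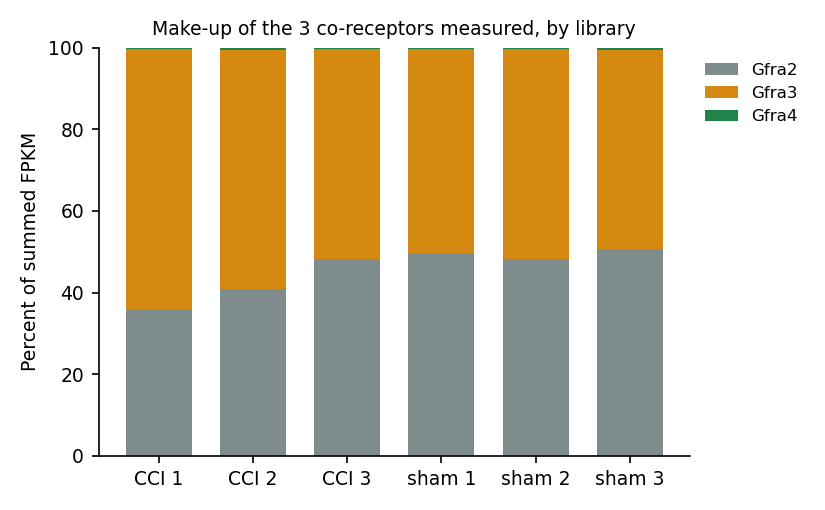
Percent of the summed FPKM of Gfra2 (grey), Gfra3 (orange) and Gfra4 (green) in each library. Gfra3 made up 63.9% in CCI 1, 51.4% in CCI 3 and 48.8% to 51.6% in the sham libraries, and Gfra4 stayed under 1% in every library.

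The ligands were measured at few counts. The 3 ligands with a row of their own and Gfra4 together had 293 counts over the 6 libraries, between 0 and 43 per gene and library. By counting error alone, a count of 0 allows up to 3 counts, or 0.0342 to 0.0394 CPM depending on the library. Intervals given for summed counts are exact Poisson intervals that cover counting error only. A 0 can go beyond counting error, since Gas1, described below, had 56, 61 and 0 counts in CCI 1, 2 and 3.

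Gdnf (chromosome 2, 56887987 to 56910238, plus strand), the founding ligand of the family, was counted 0, 8 and 0 times in CCI 1, 2 and 3, against 8, 11 and 11 times in sham 1, 2 and 3. It was not detected in CCI 1 and CCI 3, and CCI 2 had as many counts as sham 1. Summed over the group, Gdnf was at 0.0336 CPM (95% interval 0.0145 to 0.0663) in the CCI group and 0.120 CPM (0.0811 to 0.172) in the sham group. The intervals of the sums did not overlap, but CCI 2 lay within the range of the sham libraries, and the fit without a filter gave a log2 fold change of -1.82 (SE 1.51, 95% interval -5.39 to 1.76, adjusted p = 0.752 by edgeR). In that fit 3.84% of 35757 rows were called, and Gdnf was not. Without CCI 2 the fitted value was -6.32, which rests on 2 libraries at 0 counts and is no bound on the fold. On log2(FPKM + 0.1) with limma it was -0.93, so that Gdnf passed both limits of a call in these 2 settings.

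Nrtn (chromosome 9, 10305470 to 10306597, plus strand) codes for neurturin. Its counts were 4, 10 and 9 for CCI 1, 2 and 3 against 23, 8 and 14 for sham 1, 2 and 3. The groups overlapped through sham 2. Its summed level was 0.0967 CPM (95% interval 0.0613 to 0.145) in the CCI group and 0.180 CPM (0.132 to 0.241) in the sham group, and the log2 fold change without a filter was -0.86 (SE 0.75, adjusted p = 0.761 by edgeR). It was -0.47 without sham 1 and -0.55 without CCI 1.

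Artn (chromosome 5, 136759717 to 136762986, minus strand), the ligand of Gfra3, was counted 26, 17 and 9 times in CCI 1, 2 and 3, against 43, 15 and 13 times in sham 1, 2 and 3. Replicate 1 was the highest library in both groups, and the groups overlapped. Its summed level was 0.219 CPM (95% interval 0.163 to 0.287) in the CCI group and 0.284 CPM (0.222 to 0.359) in the sham group. The log2 fold change without a filter was -0.36 (SE 0.67, adjusted p = 0.913 by edgeR) and turned to 0.32 without sham 1. The ratio of Artn to Nrtn in FPKM ranged from 0.450 to 3.36 in the CCI group and from 0.482 to 1.03 in the sham group (exact permutation p = 0.9).

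Pspn was in the table only as part of the joined row Gtf2f1;Pspn (chromosome 9, 10032838 to 10045429, plus strand, 3 transcripts), in which it cannot be told apart from Gtf2f1, a subunit of the general transcription factor TFIIF. This row also shared 55 bases with the row of Alkbh7 on the other strand. It had 7.43, 7.21 and 6.86 FPKM in CCI 1, 2 and 3 and 7.31, 7.45 and 7.61 FPKM in sham 1, 2 and 3. The groups overlapped, with a log2 fold change of -0.07 (SE 0.06, adjusted p = 0.761). No level of persephin can be read from it.

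**Figure D4:**
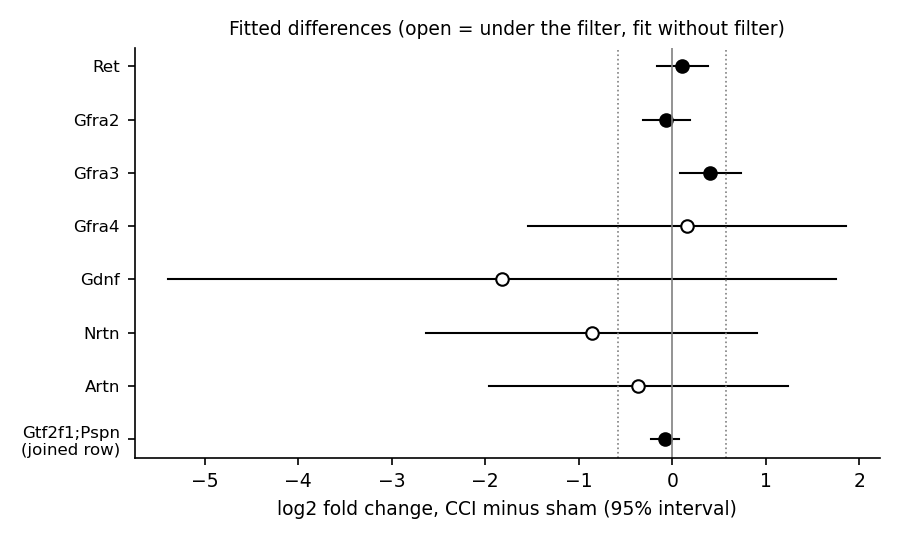
Log2 fold change of the CCI group against the sham group with its 95% interval for the 8 gene rows; filled points passed the filter, open points come from the fit without a filter, and dotted lines mark 0.58 in either direction. The interval of Gfra3 (0.08 to 0.73) lay above 0, those of Ret and Gfra2 spanned 0 within the dotted lines, and that of Gdnf ran from -5.39 to 1.76.

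The genes that act with or after Ret were followed in a list of 43 genes, of which 42 had a row and 39 passed the filter. Sorl1 was not analysed here, and Grb7, Dok2 and Cblc were under the filter. None of the 39 was called higher and 1 was called lower, 2.56% against 3.83% of all rows tested, and none had an adjusted p under 0.05. The median log2 fold change of the list was 0.02, against 0.01 over all rows tested, and 21 of the 39 values were positive. At an unadjusted p under 0.05 alone there were 11 genes, 2 higher and 9 lower, or 28.2% of the list against 10.7% of all rows. All rows include many that are not protein-coding. In the fit of protein-coding rows alone, 2048 of 13712 rows had an unadjusted p under 0.05. All but 1 of the 39 had a log2 fold change within 0.58 of 0.

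The gene called lower was Frs2, an adaptor that docks on phosphorylated Ret and on other growth factor receptors. Its counts were 1070, 1106 and 1166 for CCI 1, 2 and 3 against 5784, 1483 and 5294 for sham 1, 2 and 3. The groups did not overlap, a separation that 8.70% of all rows tested showed in this direction. Sham 2, however, lay close to the CCI libraries and far from the other sham libraries. Sham 1 and sham 3, the high libraries, were also those with more muscle marker signal than any CCI library. The summed muscle marker FPKM was 124 in sham 1 and 17.7 in sham 3, while Frs2 was at 8.76 and 8.40 FPKM. The part of the muscle signal in the Frs2 value was not tested. Its log2 fold change was -1.82 (SE 0.45, adjusted p = 0.242), and it remained called in each of the 14 alternatives, between -2.21 and -1.25, with -1.56 without sham 1 and -1.59 without sham 3. Frs3, its paralog, had a log2 fold change of -0.31 (SE 0.35, adjusted p = 0.832).

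Among transcription factors of the ETS family that are known to respond to Ret and other receptor tyrosine kinases, Etv1, Etv4 and Etv5 were each at an unadjusted p under 0.05 and below the fold limit. They were singled out after their values were seen. Etv1 had 15.7, 17.6 and 17.6 FPKM in CCI 1, 2 and 3 and 23.0, 20.9 and 22.0 FPKM in sham 1, 2 and 3, with a log2 fold change of -0.39 (SE 0.07, adjusted p = 0.114). The log2 fold change of Etv4 was -0.52 (SE 0.17, adjusted p = 0.356) and that of Etv5 was -0.21 (SE 0.07, adjusted p = 0.362). In all 3, each CCI library lay below each sham library, the separation given above for 8.70% of all rows tested. Etv1 is also a factor of proprioceptive neurons, and the large myelinated neuron markers, given above, had lower sums in the CCI group; their part in these values was not tested.

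Of the other genes with an unadjusted p under 0.05, the higher ones were Pik3ca, the catalytic subunit of phosphoinositide 3-kinase, with a log2 fold change of 0.36 (SE 0.10, adjusted p = 0.294), and the kinase gene Akt1 at 0.13. The lower ones were Dok4 (-0.26) and Sh2b1 (-0.20), both adaptors, Sos1 (-0.13), a Ras exchange factor, Prkaca (-0.24), a catalytic subunit of protein kinase A, and Spry4 (-0.38), a feedback inhibitor of receptor tyrosine kinases. None of these 7 passed the fold limit.

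**Figure D5:**
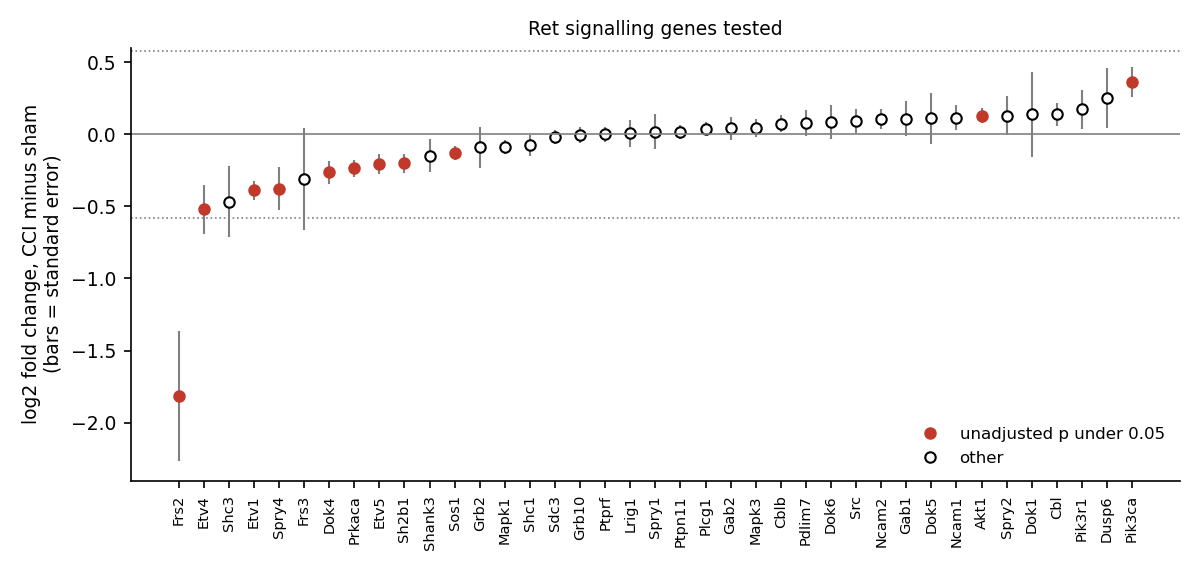
Log2 fold change (CCI against sham) of the 39 tested genes that act with or after Ret, in rising order, with bars for the standard error and red points for an unadjusted p under 0.05; dotted lines mark 0.58 in either direction. Frs2 lay at -1.82, and the other 38 genes lay between the dotted lines.

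More distant relatives of the family had few counts. Gdf15, a distant ligand, was counted 14, 0 and 0 times in CCI 1, 2 and 3, against 8, 25 and 24 times in sham 1, 2 and 3. Gfral, the co-receptor through which Gdf15 uses Ret, was counted 0, 4 and 3 times in CCI 1, 2 and 3, against 0, 7 and 13 times in sham 1, 2 and 3. Gas1, a surface protein related to the co-receptors, was counted 56, 61 and 0 times in CCI 1, 2 and 3, against 116, 67 and 99 times in sham 1, 2 and 3. All CCI libraries of Gas1 were below all sham libraries, as in 8.70% of all rows tested, but its log2 fold change of -1.21 did not pass the test (adjusted p = 0.775 by edgeR). Its FPKM was 0.544, 0.595 and 0.0001 in CCI 1, 2 and 3 and 1.04, 0.661 and 0.931 in sham 1, 2 and 3. Gas1 thus passed the filter mainly through the sham group, which favours lower CCI values, so the separation cannot be read as a difference.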

How the data were processed

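Ribosomal RNA-depleted, dUTP-stranded libraries of DRG from 3 CCI and 3 sham rats were sequenced as read pairs. Per the labels, reads were processed with HISAT2 2.0 and StringTie 1.3.0. The study's methods name rat genome V101, and whether counting used strand is not given in the sources used here. The authors deposited counts and FPKM per gene row. FPKM was listed at a small constant where the count was 0. Rows naming no gene symbol held 5.37% to 5.72% of counts and stayed in the totals and tests.

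The counts were tested with edgeR 4.0.16 (R 4.3.3) by the quasi-likelihood test with TMM scaling and Benjamini-Hochberg adjustment over rows whose mean FPKM reached 0.5. Members under it come from the same fit without a filter over 35757 rows. As in the study, a call needed a log2 fold change at or beyond 0.58 in either direction with an unadjusted p under 0.05. Ratios of FPKM were compared by two-sided exact permutation tests. Alternatives used DESeq2 1.42.0, limma 3.58.1 on log2(FPKM + 0.1) or log2(FPKM + 1), other filters and scaling, a replicate block, and leaving out each library. The script was tested on simulated counts. P-values by edgeR set the group difference against the spread between libraries, estimated with help from all rows. Permutation p-values come from regrouping the 6 libraries. Because the labels speak of pooled samples, that spread may not be one between single rats.

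Members and gene lists were chosen with earlier results of these data known. Named genes were the 9 members, listed signalling genes called, Frs2, the 3 protein-coding genes most correlated with the member of smallest p, and Atf3 and Gal; other names were added after values were seen. The deviations of same-numbered libraries from their group means correlated at -0.01, -0.02 and -0.05.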

Additional observations from a re-analysis of the deposited data

How the results depend on the processing

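No member was called in the reported fits, Gdnf was called in 2 alternatives (-6.32 without CCI 2, -0.93 with limma), and Gfra3 kept its direction in all 14 alternatives, with log2 fold changes from 0.25 (without CCI 1) to 0.50 (without CCI 3) and unadjusted p-values from 0.00685 (DESeq2) to 0.0697 (without sham 1). Its p was under 0.05 in 12 of them; with the replicate block it was 0.0523. The replicate numbers share no source and the deviations of same-numbered libraries did not correlate. Under the replicate block, 0 rows had an adjusted p under 0.05 in edgeR, against 25 in the fit without it, and 2336 rows had an unadjusted p under 0.05. At an adjusted p under 0.05 DESeq2 gave 751 rows, protein-coding rows alone 76, and leaving out one library between 6 (without CCI 2) and 61 (without CCI 1). Rows called at the unadjusted limits numbered 571 with limma on log2(FPKM + 1) and 468 over protein-coding rows, against 1022. Signalling genes called lower ranged from 1 to 3 when a library was left out, the 3 being Frs2, Etv4 and Shc3 without CCI 2. Directions turned only in values near 0 or on few counts, and the cause was not tested. Leaving out a library gave Nrtn -1.14 to -0.47, Artn -0.76 to 0.32, Gfra2 -0.17 to 0.0020 and Gfra4 -0.19 to 0.53. It gave Gfra3 share differences of 4.87 (without CCI 1) to 11.1 percentage points (without CCI 3), log2 Artn/Nrtn differences of -0.33 (without CCI 1) to 1.12 and Gfra4 shares of the co-receptors differing by -0.0907 (without CCI 2) to 0.1003 percentage points. The settings for members under the filter were chosen after seeing the data. Ratios with Gdnf could not be computed where it had 0 counts, and ratios with Gfra1 were not run. Counts, under 50 per library, limit what can be said of Gdnf, Nrtn, Artn and Gfra4.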
